A study of Mus musculus with 28 samples.

Results

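Expression of 10 immediate early genes, *Fos*, *Fosb*, *Jun*, *Junb*, *Jund*, *Egr1*, *Atf3*, *Ier2*, *Dusp1* and *Zfp36*, was followed in FACS-isolated hippocampal microglia of WT and 5xFAD mice with and without gut microbes. The 10 genes were picked by name from the 48587 genes of the count table. All 10 were found, and 9 of 10 had enough reads to be tested, the exception being *Fosb*.

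Each of the 28 libraries held the CD11b+CD45low cells of 1 mouse, sorted after a density gradient. There were 5 WT and 3 5xFAD mice under specific pathogen free (SPF) conditions, 4 WT and 5 5xFAD germ-free (GF) mice, and 5 WT and 6 5xFAD mice given antibiotics (ABX). All mice were 16 weeks old according to the labels, which is close to the age of 4 months in the methods. ABX mice were SPF mice that drank a mixture of vancomycin, cefoxitin, gentamicin and metronidazol during the last 8 weeks. 5xFAD mice are a mouse model of Alzheimer's disease that carries mutated human APP and PS1 transgenes under the neuron-specific Thy-1 promoter, so the transgenes are driven in neurons and not in microglia. The 5xFAD mice were heterozygous males on a C57BL/6J background, and WT mice were their littermates without the transgenes. The GF colony was kept in Bern and every other group in Freiburg, so effects of germ-free life and of the facility cannot be told apart. Names such as FAD_GF_184 are library titles, in which FAD stands for 5xFAD. The title and genotype of FAD_GF_201 give a 5xFAD mouse, its description gives a WT mouse, and it was kept as a GF 5xFAD mouse.

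Immediate early genes are switched on within minutes of a stimulus without the need for new protein, by kinases that act on factors already bound to their promoters. Many encode transcription factors, and Fos and Jun family proteins pair to form AP-1, which then drives later genes. Their mRNAs are mostly short-lived, and in microglia they respond to inflammatory signals and also to the handling of tissue during cell isolation, so that levels in sorted cells can hold a part that arose after death of the animal.

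The libraries held 14441610 to 29977395 reads assigned to genes. The 8 markers of microglia summed to between 45230 and 55910 CPM (read counts scaled to a common library size) in the 5xFAD libraries and to between 57780 and 64590 CPM in the WT libraries, without overlap, and 3, 4 and 4 of the 8 fell in 5xFAD against WT mice under SPF, GF and ABX conditions. Neutrophil markers summed to between 56.5 and 221 CPM in the 3 SPF 5xFAD libraries and to 117 CPM in FAD_ABX_1151, and to at most 0.177 CPM in the SPF WT, GF and ABX WT libraries, although Ly6G+ cells were gated out during the sort. Of the 6 neutrophil markers, 4 had reads enough for the test, which they owe to the SPF 5xFAD libraries and FAD_ABX_1151. That all 4 were higher in SPF 5xFAD than in GF 5xFAD mice follows from how they entered the test. It is no separate support. In every GF 5xFAD library 4 of 6 were at 0. Fewer cells of a type and less RNA per cell cannot be told apart in such bulk samples. Markers of border-associated macrophages summed to between 32.8 and 242 CPM in ABX 5xFAD, between 9.44 and 77.0 CPM in GF 5xFAD and between 15.3 and 28.3 CPM in SPF 5xFAD mice. In WT mice they summed to 10.7 to 41.9 CPM under GF, 3.48 to 8.09 CPM under SPF and 3.74 to 5.90 CPM under ABX conditions, so GF WT mice lay in the range of the 5xFAD mice. Mitochondrial reads made up 0.283% to 0.425% in SPF 5xFAD, 0.168% to 0.290% in GF 5xFAD and 0.111% to 0.147% in GF WT libraries. The names in the descriptions of the libraries follow 3 styles. All SPF WT and ABX WT libraries share the first, the SPF 5xFAD libraries and FAD_ABX_1151 the second, and all GF and the other 5 ABX 5xFAD libraries the third. Whether the styles are batches is not stated.

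The members differed widely in level. Compared per length of their transcripts, as the median CPM per kb over the 28 mice, *Junb* reached 61.9, *Jun* 47.2 and *Zfp36* 40.8. *Jund* followed with 17.1, *Atf3* with 16.3, *Ier2* with 10.9, *Egr1* with 4.42 and *Dusp1* with 1.89, and *Fos* reached 0.490. *Junb* lay above *Jun* in 28 of 28 mice, *Jun* above *Zfp36* in only 17 and *Jund* above *Atf3* in only 15, so the order of the last 2 of these pairs was not stable between mice. *Dusp1* lay above *Fos* in 24 of 28 mice. *Fos* mRNA, whose product is the classic partner of Jun in AP-1, was thus scarce in the libraries in which *Jun* and *Junb* were abundant. A median of 27 reads per library came from *Fos*, against 2686.5 from *Jun* and 3052 from *Junb*.

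The promoters of members with high and low mRNA are shown to set their sequence beside these levels. RefSeq promoters on GRCm38.p6, from 250 bases before to 50 bases after a RefSeq transcript start, called the start below, were at hand for 8 of the 10 members. None was at hand for *Egr1* and *Ier2*. The windows of *Atf3* and *Zfp36* lie inside the gene coordinates given below, and that of *Jund* lies wholly before its gene. Distances in these are therefore not from the outer end of the gene. The 300 bases are given 5′ to 3′ on the strand of the gene, and capitals mark every match to TGACNTCA, TGANTCA or TGACG on either strand. TGACNTCA covers the cAMP response element and the *Jun*-type AP-1 site, TGANTCA is the short AP-1 site, and TGACG is the core of the cAMP response element, which can overlap TGACNTCA. *Fos* (chr12:85473640-85473939, plus strand), *Dusp1* (chr17:26508423-26508722), *Jun* (chr4:95052173-95052472), *Junb* (chr8:84978699-84978998), *Atf3* (chr1:191183284-191183583) and *Zfp36* (chr7:28379179-28379478, the last 5 on the minus strand) read as follows.
Fos: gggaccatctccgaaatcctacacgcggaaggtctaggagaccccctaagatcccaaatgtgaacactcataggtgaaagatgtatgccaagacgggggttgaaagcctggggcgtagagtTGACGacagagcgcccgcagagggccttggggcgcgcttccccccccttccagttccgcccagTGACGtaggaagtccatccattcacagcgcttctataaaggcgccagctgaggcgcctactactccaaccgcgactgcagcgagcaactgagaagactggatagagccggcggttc
Dusp1: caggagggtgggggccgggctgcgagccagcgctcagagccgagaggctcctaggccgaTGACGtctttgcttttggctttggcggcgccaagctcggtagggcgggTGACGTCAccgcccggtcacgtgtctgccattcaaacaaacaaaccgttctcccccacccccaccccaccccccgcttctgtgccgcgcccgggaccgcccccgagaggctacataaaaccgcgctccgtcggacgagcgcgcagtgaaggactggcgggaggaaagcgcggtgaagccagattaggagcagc
Jun: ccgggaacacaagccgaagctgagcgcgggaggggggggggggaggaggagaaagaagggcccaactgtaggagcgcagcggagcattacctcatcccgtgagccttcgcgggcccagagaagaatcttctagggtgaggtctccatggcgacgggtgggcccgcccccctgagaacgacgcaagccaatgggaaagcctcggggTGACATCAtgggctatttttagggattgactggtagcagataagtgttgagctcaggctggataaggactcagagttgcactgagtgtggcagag
Junb: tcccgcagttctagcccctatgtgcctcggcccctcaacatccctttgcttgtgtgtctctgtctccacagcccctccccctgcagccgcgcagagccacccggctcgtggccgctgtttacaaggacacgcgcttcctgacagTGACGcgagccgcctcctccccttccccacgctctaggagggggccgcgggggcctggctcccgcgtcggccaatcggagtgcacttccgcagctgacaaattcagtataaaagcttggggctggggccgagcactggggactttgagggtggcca
Atf3: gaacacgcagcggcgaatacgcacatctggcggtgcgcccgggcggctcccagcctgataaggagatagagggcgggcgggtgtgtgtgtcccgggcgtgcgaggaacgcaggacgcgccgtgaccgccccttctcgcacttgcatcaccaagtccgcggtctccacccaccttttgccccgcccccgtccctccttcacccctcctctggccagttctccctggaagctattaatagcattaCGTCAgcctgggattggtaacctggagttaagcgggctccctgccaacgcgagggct
Zfp36: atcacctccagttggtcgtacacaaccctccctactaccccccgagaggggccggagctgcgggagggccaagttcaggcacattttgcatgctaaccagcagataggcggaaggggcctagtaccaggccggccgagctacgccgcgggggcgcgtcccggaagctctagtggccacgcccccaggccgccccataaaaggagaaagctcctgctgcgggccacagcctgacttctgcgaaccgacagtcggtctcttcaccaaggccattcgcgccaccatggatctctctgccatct

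TGACG was present in 5 of 8 member promoters, those of *Fos*, *Fosb*, *Junb*, *Atf3* and *Dusp1*, and in 20.8% of all 32851 promoters of the same length. In *Fos* it started 129 and 66 bases before the start of the gene, and a TATAAA box, found in 13.6% of all promoters, started 33 bases before it. TGACNTCA was present in 2 of 8, *Jun* at 45 bases and *Dusp1* at 143 bases before the start, and in 8.83% of all promoters. TGANTCA was found in 0 of 8 windows and in 7.81% of all promoters. The CArG box, the motif of serum response factor, was found in 1 of 8, *Zfp36* at 58 bases before the start, and in 1.63% of all promoters. Scarce *Fos* and abundant *Junb* therefore both held TGACG, while *Jun* held TGACNTCA and *Zfp36* neither. These are matches of letters in short windows and say nothing about binding in these cells.

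The ends of some mRNAs carry AU-rich elements, which can destabilise transcripts and can be bound by the product of *Zfp36*. Such binding was not examined here. TATTTAT was looked for on the sense strand of the last 500 bases of the longest protein-coding transcript of each gene in GENCODE M21. It was present in 6 of 10 members and in 13.2% of 19363 genes. The core ATTTA within it was present in 8 of 10 members and in 53.8% of genes. For the 6 members with TATTTAT, 29 bases around a match are given with TATTTAT in capitals, 5′ to 3′ on the strand of the gene on GRCm38.p6: *Fos* at chr12:85477103-85477131 and *Jund* at chr8:70700359-70700387 on the plus strand, and *Jun* at chr4:95049079-95049107, *Atf3* at chr1:191170338-191170366, *Dusp1* at chr17:26505870-26505898 and *Zfp36* at chr7:28376966-28376994 on the minus strand.
Fos: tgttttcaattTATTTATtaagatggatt
Jun: ttgcttgtgcaTATTTATaatagcgttcg
Jund: cgattccgcccTATTTATgtttctactcg
Atf3: aaaatattactTATTTATcccagtattcc
Dusp1: gtttttaccttTATTTATttttgtgtagg
Zfp36: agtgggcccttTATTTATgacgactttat

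*Zfp36* held 3 matches, *Fos* and *Dusp1* 2 each, and *Jun*, *Jund* and *Atf3* 1 each, while *Junb*, *Ier2*, *Egr1* and *Fosb* held 0. Members of high and of low mRNA level were found among those with a match.

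*Fos* (chr12:85473890-85477273) was both low and the most variable member. In SPF WT mice it measured 0.612, 2.84, 0.223, 0.646 and 0.608 CPM, in GF WT mice 5.37, 0.931, 1.72 and 0.773 CPM, and in ABX WT mice 0.458, 0.331, 0.357, 2.82 and 1.12 CPM. In SPF 5xFAD mice it measured 1.09, 0.541 and 1.18 CPM and in GF 5xFAD mice 2.67, 3.40, 1.55, 3.04 and 5.92 CPM. In ABX 5xFAD mice the lowest value was 0.391, the median 2.06 and the highest 19.0 CPM, the latter in FAD_ABX_1455. Single mice stood far above the others in several groups, and the ratio of the highest to the lowest mouse of a group ranged from 2.19 to 48.6. *Fosb* (chr7:19302696-19310051), a relative of *Fos*, had 0 reads in 16 of 28 mice, where a count of 0 allows up to 3 reads or 0.122 to 0.198 CPM. It reached 31 reads and 1.27 CPM in FAD_GF_184 and at most 4 reads in every other mouse, so its groups could not be compared at this depth.

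**Figure D1:**
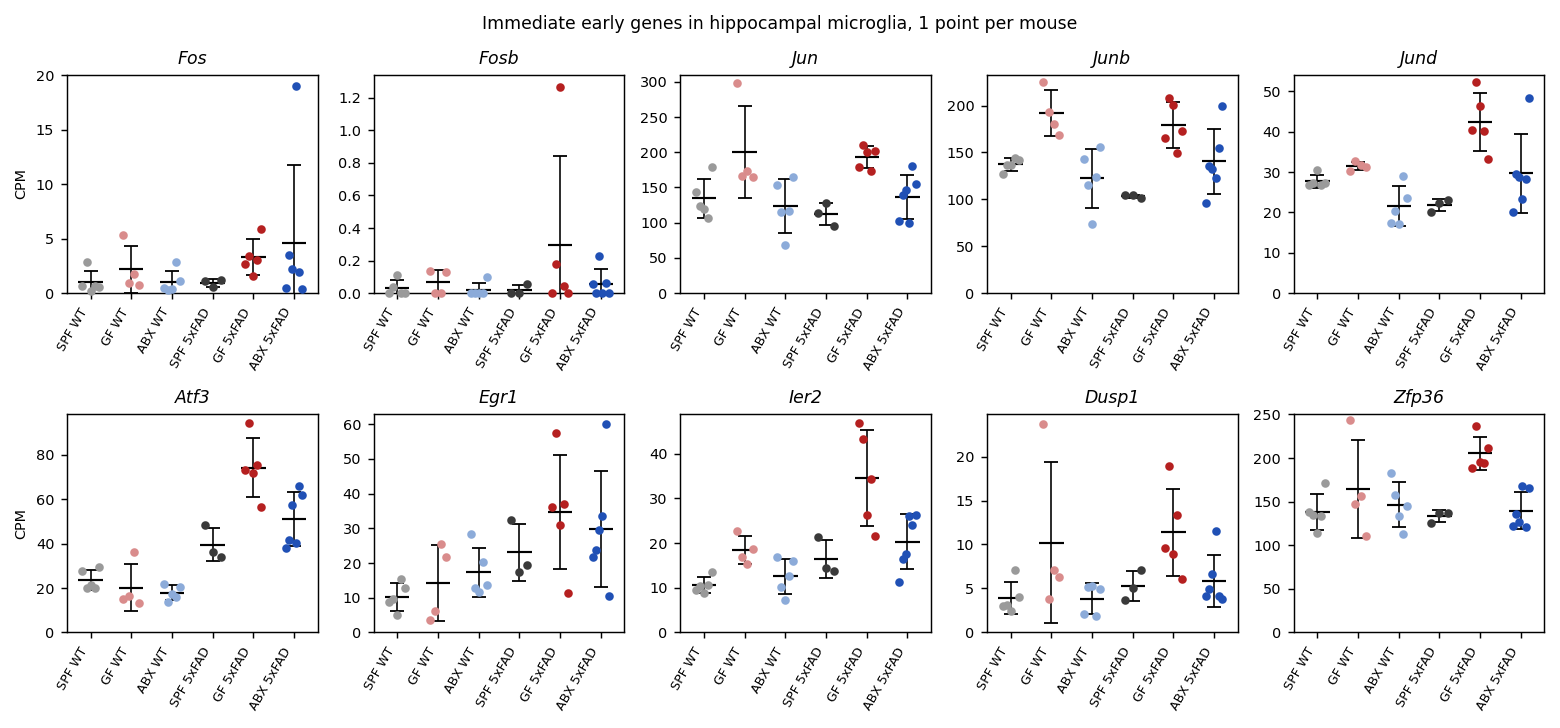
Expression of each gene in CPM on a linear axis from 0, with 1 point per mouse, the mean as a horizontal line and the SD as bars, which are cut at 0. *Fos* lay below 6 CPM except for 19.0 CPM in 1 ABX 5xFAD mouse, and *Atf3* was higher in all 5xFAD mice of a condition than in the WT mice of that condition.

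The GF condition was compared with SPF in 5xFAD mice, to ask whether lifelong absence of microbes went along with other levels of these genes in diseased brains. In this comparison 6 of 9 members tested rose in GF 5xFAD mice, namely *Jun*, *Junb*, *Jund*, *Atf3*, *Ier2* and *Zfp36*, each by 0.62 to 1.06 on the log2 scale. Of all 15298 genes tested, 12.8% passed the same threshold, an adjusted p below 0.05 in edgeR's quasi-likelihood test. All 9 members had a positive difference, with a median of 0.91 on the log2 scale against 0.018 over all genes.

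Among the Jun family, which bind DNA as pairs with each other or with Fos proteins, *Jun* (chr4:95049034-95052222) measured 114, 127 and 95.6 CPM in SPF 5xFAD and 180, 210, 200.9, 174 and 202 CPM in GF 5xFAD mice. *Junb* (chr8:84974484-84978718) measured 104, 104 and 101 CPM in SPF 5xFAD and 166, 208, 200.97, 149 and 173 CPM in GF 5xFAD mice. *Jund* (chr8:70698949-70700616) measured 20.2, 22.4 and 23.1 CPM in SPF 5xFAD and 40.4, 52.4, 46.3, 40.2 and 33.3 CPM in GF 5xFAD mice. In all 3 genes every GF 5xFAD mouse lay above every SPF 5xFAD mouse. Such groups without overlap, in either direction, were found in 7 of 9 members and in 19.6% of all genes tested. The rise was 0.78 ± 0.23 (SE) on the log2 scale for *Jun*, with an adjusted p of 0.0243 by edgeR. It was 0.80 ± 0.18 for *Junb* (edgeR, adjusted p = 0.00558) and 0.96 ± 0.20 for *Jund* (edgeR, adjusted p = 0.00344). *Jund* shares 52.58% of its exon bases with *Gm11175* on the other strand, and the sources do not state that the counting used strand, so reads from the shared bases cannot be assigned to either gene.

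*Atf3* (chr1:191170296-191218039), a stress-induced factor of the ATF/CREB family, measured 48.2, 36.3 and 34.2 CPM in SPF 5xFAD and 73.0, 94.3, 72.0, 75.6 and 56.6 CPM in GF 5xFAD mice. *Ier2* (chr8:84661331-84662852), a short nuclear protein induced early by growth signals, measured 21.4, 14.4 and 13.7 CPM in SPF 5xFAD and 47.0, 43.3, 26.2, 34.4 and 21.7 CPM in GF 5xFAD mice. *Zfp36* (chr7:28376784-28380253), which encodes the mRNA-destabilising protein tristetraprolin, measured 125, 137 and 137 CPM in SPF 5xFAD and 189, 236, 196, 195 and 212 CPM in GF 5xFAD mice. The groups did not overlap in these 3 genes either, although FAD_GF_201 with 21.7 CPM and FAD_SPF_1144 with 21.4 CPM nearly met for *Ier2*. *Atf3* rose by 0.91 ± 0.25 on the log2 scale (edgeR, adjusted p = 0.0188), *Ier2* by 1.06 ± 0.28 (adjusted p = 0.0136, edgeR) and *Zfp36* by 0.62 ± 0.18 (adjusted p = 0.0199, edgeR).

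The remaining 3 members did not pass. *Egr1*, a zinc finger factor induced through serum response factor, measured 32.4, 17.4 and 19.5 CPM in SPF 5xFAD and 36.1, 57.4, 31.0, 37.0 and 11.4 CPM in GF 5xFAD mice. *Dusp1* (chr17:26505590-26508519), a phosphatase that switches off MAP kinases, measured 3.69, 5.02 and 7.10 CPM in SPF 5xFAD and 9.62, 19.0, 8.91, 13.3 and 6.07 CPM in GF 5xFAD mice. In both FAD_GF_201 was the lowest GF 5xFAD mouse and fell within or below the range of SPF 5xFAD mice. *Fos* did not overlap between the groups, yet its difference of 1.82 ± 1.00 on the log2 scale had an adjusted p of 0.25 by edgeR, with a 95% interval from -0.25 to 3.89. *Dusp1* differed by 1.11 ± 0.51 (edgeR, adjusted p = 0.153). *Egr1* differed by 0.58 ± 0.52 (edgeR, adjusted p = 0.512).

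Only 3 SPF 5xFAD mice carry this comparison, and 2 rather than 6 members passed without FAD_SPF_1146 or without FAD_SPF_1148, when 4.31% and 3.41% of all genes passed. *Junb* and *Jund* passed under all 38 other settings, and with offsets for GC content 3 members passed, *Junb*, *Jund* and *Atf3*. The style of the library names and the 2 groups cannot be told apart, and the SPF 5xFAD libraries are those with neutrophil markers. FAD_ABX_1151, the only other library of that style and with such markers, measured 102 CPM of *Jun*, 96.6 of *Junb*, 20.0 of *Jund*, 38.2 of *Atf3*, 11.2 of *Ier2* and 122 of *Zfp36*. It lay below the mean of its group, ABX 5xFAD, in 9 of 9 members. Of the 6 markers of border-associated macrophages, the 4 of astrocytes and the 3 of endothelial cells tested 0 passed in this comparison. The summed levels of astrocyte markers were 155 to 189 CPM in GF and 223 to 239 CPM in SPF 5xFAD mice. Those of endothelial markers were 8.42 to 28.4 CPM and 29.0 to 40.4 CPM. Most of the astrocyte sum was *Slc1a3*, with a median of 235 CPM over all mice against at most 1.315 CPM for any other astrocyte marker. *Pecam1* and *Kdr* led the endothelial sum, with medians of 26.55 and 8.78 CPM. Both sums thus follow single genes and do not measure a cell type. Neither sum overlapped between the groups, nor did the TMM factors, 0.918 to 0.954 and 0.979 to 1.01. The part of neutrophil RNA, of these sums and factors, of the mitochondrial share and of the name style in the result was not tested.

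In WT mice GF was compared with SPF in the same way. By edgeR 0 of 9 members passed, where 1.62% of all genes did. At an unadjusted p below 0.05 there were 4 members and 2538 genes. DESeq2 called 3 members and 721 genes, and voomWithQualityWeights 2 members and 1631 genes (10.7%). Of the 6 border-associated macrophage markers 4 rose in GF WT mice and 1 of 4 astrocyte markers fell, and mitochondrial reads made up 0.111% to 0.147% in GF WT against 0.162% to 0.285% in SPF WT libraries. The part of these was not tested. *Junb* measured 127, 137, 137, 144 and 142 CPM in SPF WT and 226, 193, 180.6 and 169 CPM in GF WT mice, without overlap, and its difference was 0.48 ± 0.16 on the log2 scale (edgeR, adjusted p = 0.117). *Ier2* measured 9.50, 10.3, 8.94, 10.6 and 13.6 CPM in SPF WT and 22.6, 16.8, 15.3 and 18.7 CPM in GF WT mice, again without overlap, which held for 2 of 9 members and 10.7% of all genes (0.80 ± 0.25 on the log2 scale, edgeR, adjusted p = 0.097). In 8 of 9 members the difference was positive, and *Atf3* was the one below 0, at -0.23 ± 0.23. The change from SPF to GF was not shown to differ between 5xFAD and WT mice. For this difference edgeR called 0 of 9 members and 0% of all genes, with 2 members and 1304 genes at an unadjusted p below 0.05. DESeq2 called 0 members and 25 genes, and voomWithQualityWeights 1 member and 116 genes. *Atf3* was the member with the smallest p, at 1.14 ± 0.34 on the log2 scale (edgeR, unadjusted p = 0.00247, adjusted p = 0.396).

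5xFAD was compared with WT mice within each condition, to follow these genes with the disease model. *Atf3* was the leading member. In WT mice it measured 27.6, 20.1, 21.4, 20.1 and 29.6 CPM under SPF, 14.9, 16.6, 36.2 and 13.2 CPM under GF and 21.9, 13.9, 17.2, 15.8 and 20.6 CPM under ABX conditions. In 5xFAD mice it measured 34.2 to 48.2 CPM under SPF and 56.6 to 94.3 CPM under GF conditions, and under ABX the lowest value was 38.2, the median 49.7 and the highest 65.9 CPM. Every 5xFAD mouse lay above every WT mouse of its condition. The groups did not overlap in 2 of 9 members and 14.8% of all genes in GF mice, and in 1 of 9 members and 6.84% of all genes in ABX mice. *Atf3* rose by 1.87 ± 0.24 on the log2 scale in GF mice (edgeR, adjusted p = 1.23e-06). It rose by 1.51 ± 0.21 in ABX mice (edgeR, adjusted p = 7.97e-06), and both calls held under all 38 other settings. In SPF mice its difference of 0.74 ± 0.25 missed the threshold (edgeR, adjusted p = 0.0913), and passed with DESeq2 (adjusted p = 0.0433) and with voomWithQualityWeights (adjusted p = 0.0102). The GF comparison lies within 1 style of library names, while for SPF and for ABX mice style and genotype cannot be told apart. In the GF comparison 0 of 6 border-associated macrophage markers passed. The 4 neutrophil markers tested summed to at most 0.0907 CPM in every GF library, so that they could hardly pass, and 0 did. Of 4 astrocyte markers tested 2 were higher and 1 lower in GF 5xFAD mice, and 1 of 3 endothelial markers was lower. *Gfap* and *Aldoc* had higher means in GF 5xFAD than in GF WT mice, 3.44 and 1.85 CPM against 0.293 and 0.207 CPM, and *Slc1a3* and *Aqp4* lower ones. The astrocyte sum, mostly *Slc1a3*, was 155 to 189 CPM in GF 5xFAD against 228 to 298 CPM in GF WT libraries. The endothelial sum, mostly *Pecam1* and *Kdr*, was 8.42 to 28.4 CPM against 33.9 to 40.8 CPM. Both sums were lower in every GF 5xFAD than in every GF WT library. The mitochondrial share did not overlap between the groups either, and the TMM scaling factors of GF 5xFAD libraries, 0.918 to 0.954, lay below those of GF WT libraries, 1.01 to 1.02. In ABX mice 6 of 6 border-associated macrophage markers and 4 of 4 neutrophil markers were higher in 5xFAD mice. The neutrophil calls came through FAD_ABX_1151 at 117 CPM, with at most 0.285 CPM in the other 5 ABX 5xFAD libraries. In SPF mice 4 of 6 and 4 of 4 were higher. The neutrophil markers had entered the test only through the SPF 5xFAD libraries and FAD_ABX_1151. Of 3 endothelial markers tested 1 was higher in SPF 5xFAD mice, and 1 was higher and 1 lower in ABX 5xFAD mice. The part of these differences in the levels of *Atf3* was not tested.

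*Ier2* rose in GF 5xFAD mice by 0.91 ± 0.25 (edgeR, adjusted p = 0.0127) and in ABX 5xFAD mice by 0.69 ± 0.23 (edgeR, adjusted p = 0.0417) on the log2 scale. Its GF groups overlapped only by the 21.7 CPM of FAD_GF_201, which lay below the 22.6 CPM of WT_GF_199. In ABX mice *Ier2* measured 16.8, 10.2, 7.25, 12.5 and 15.9 CPM in WT, and in 5xFAD mice from 11.2 over a median of 20.9 to 26.3 CPM. That call was lost under 10 of 38 settings, among them without WT_ABX_910, WT_ABX_911, WT_ABX_923, FAD_ABX_1455, FAD_ABX_1460 or FAD_ABX_1482 and with offsets for GC content (edgeR, adjusted p = 0.131). *Atf3* and *Ier2* were thus the 2 of 9 members that passed in GF mice, where 15.6% of all genes passed, and the 2 of 9 in ABX mice, where 14.4% did. Without FAD_ABX_1151, 4 members and 17.7% of all genes passed in ABX mice, and without WT_ABX_910, WT_ABX_911 or FAD_ABX_1460 only 1 member and 11.4%, 9.9% and 11.8% of all genes did. Without FAD_GF_201, 4 members and 18.1% of all genes passed in GF mice.

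*Jun* differed between 5xFAD and WT mice by -0.26, -0.06 and 0.14 on the log2 scale in SPF, GF and ABX mice and *Zfp36* by -0.05, 0.32 and -0.07, and passed in 0 of these comparisons. *Egr1* differed by 1.16, 1.29 and 0.79 and *Fos* by -0.09, 0.58 and 2.16, with adjusted p-values by edgeR of at least 0.0694 for *Egr1* and 0.0724 for *Fos*. The *Fos* result in ABX mice hung on single mice and passed under 5 of 37 other settings. Its adjusted p by edgeR was 0.538 without FAD_ABX_1455 and 0.0142 without FAD_ABX_1151 and FAD_ABX_1482. In SPF mice *Egr1*, *Atf3* and *Ier2* were higher and *Junb* and *Jund* lower in every 5xFAD than in every WT mouse, so the groups did not overlap in 5 of 9 members and in 16.9% of all genes tested. Still 0 of 9 members passed by edgeR, where 4.57% of all genes did. At an unadjusted p below 0.05 there were 4 members and 2182 genes. DESeq2 called 1 member and 896 genes, and voomWithQualityWeights 2 members and 2154 genes (14.1%). A fit of only the SPF groups called 4 members, *Junb*, *Egr1*, *Atf3* and *Ier2*, and 1340 of 13796 genes (9.71%).

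**Figure D2:**
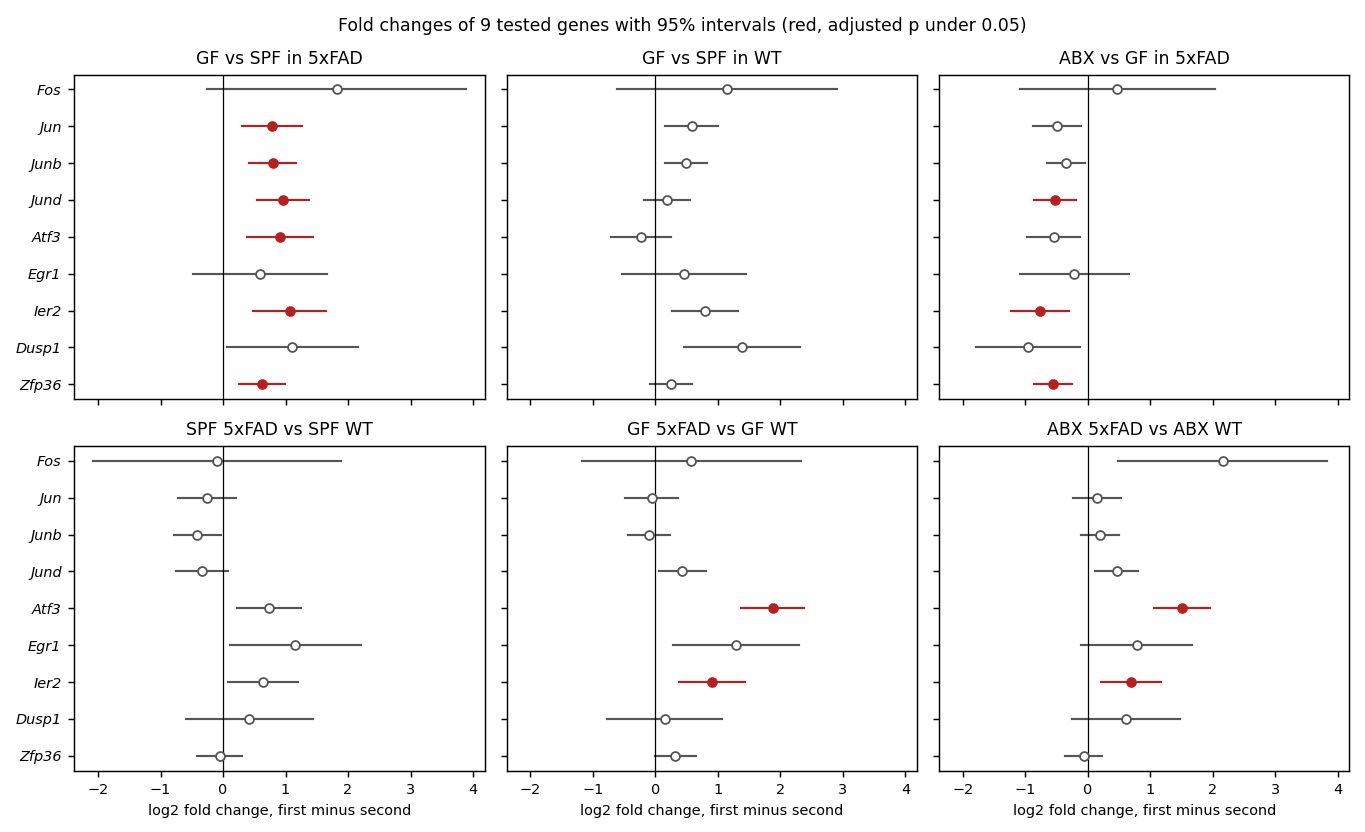
Log2 fold changes of the 9 tested genes (points) with 95% intervals (lines) in 6 comparisons, each axis in log2 units, filled red where the adjusted p is below 0.05. For GF against SPF 5xFAD mice all 9 points lie above 0 and 6 are red, and for 5xFAD against WT mice *Atf3* and *Ier2* are red under GF and ABX conditions.

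Antibiotic treatment from the age of 8 weeks was compared with SPF and with GF housing, to set induced beside constitutive absence of microbes. Against SPF, edgeR called 0 of 9 members in 5xFAD mice and 0 of 9 in WT mice, and 0% of all genes in each. In 5xFAD mice all 9 members had a positive difference, with a median of 0.36 on the log2 scale against 0.012 over all genes, and the comparison shares its 3 SPF 5xFAD mice with that of GF mice. At an unadjusted p below 0.05 there were 3 members and 1085 genes in 5xFAD mice, and 1 member and 687 genes in WT mice. DESeq2 and voomWithQualityWeights called 0 members in both, with 8 and 134 genes in 5xFAD and 2 and 0 genes in WT mice. The 5xFAD effect in ABX mice was also not shown to differ from that in SPF mice in any member. Here edgeR, DESeq2 and voomWithQualityWeights each called 0 of 9, with 0% of all genes by edgeR, 1 gene by DESeq2 and 14 genes by voomWithQualityWeights, and 3 members and 1032 genes had an unadjusted p below 0.05.

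Against GF mice the difference was negative in 8 of 9 members in 5xFAD mice and in 8 of 9 in WT mice. In 5xFAD mice 3 of 9 fell, where 10.6% of all genes passed. *Zfp36* had the smallest adjusted p, with 121 CPM as the lowest, 131 as the median and 168 as the highest value in ABX against 189 to 236 CPM in GF 5xFAD mice, without overlap, as in 1 of 9 members and 2.83% of all genes. It fell by 0.56 ± 0.14 on the log2 scale (edgeR, adjusted p = 0.0133), under all 38 other settings too. *Ier2* fell by 0.77 ± 0.22 (edgeR, adjusted p = 0.0263) and *Jund* fell by 0.52 ± 0.16 (edgeR, adjusted p = 0.036), both with overlap. The count dropped to 1 without FAD_ABX_1151, when all libraries compared shared 1 name style and 6.39% of all genes passed. It was also 1 without FAD_ABX_1452, FAD_ABX_1453, FAD_GF_181 or FAD_GF_182, with 7.09% to 9.06% of all genes passing, and rose to 5 without FAD_ABX_1482, with 16.3%. Of the markers of other cells, 1 of 6 of border-associated macrophages, 3 of 4 of neutrophils, again with FAD_ABX_1151 far above the others, and 1 of 4 of astrocytes were higher in ABX 5xFAD mice, and their part was not tested.

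In WT mice 2 of 9 fell, where 6.88% of all genes passed. *Junb* measured 143, 116, 74.3, 123 and 155 CPM in ABX WT mice and fell by 0.65 ± 0.16 on the log2 scale against GF WT mice (edgeR, adjusted p = 0.0156). *Jun* measured 154, 115, 68.5, 117 and 165 CPM in ABX WT against 299, 166, 174 and 165 CPM in GF WT mice and fell by 0.70 ± 0.21 (edgeR, adjusted p = 0.0375). Groups without overlap were found in 3 of 9 members, these and *Jund*, and in 10.9% of all genes, though the highest ABX and the lowest GF mouse were nearly equal for *Jun*. With GC content offsets 0 members and 1.41% of all genes passed. Without WT_ABX_910, WT_ABX_911 or WT_GF_199 1 member passed, with 4.09%, 3.29% and 6.67% of all genes, and without FAD_ABX_1482 4 members passed, with 8.66%. Here ABX and GF libraries have different name styles, which cannot be told apart from the treatment. Border-associated macrophage markers, at 3.74 to 5.90 CPM in ABX WT against 10.7 to 41.9 CPM in GF WT mice, fell as well, 4 of 6 passing. Mitochondrial reads made up 0.179% to 0.347% in ABX WT against 0.111% to 0.147% in GF WT libraries, without overlap. The part of both was not tested. The 5xFAD effect was not shown to differ between ABX and GF mice in any member by edgeR, DESeq2 or voomWithQualityWeights (0 of 9 each, also 0 at an unadjusted p below 0.05), where 1.76% of all genes passed by edgeR, 576 genes by DESeq2 and 281 by voomWithQualityWeights, and 2436 had an unadjusted p below 0.05.

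Over all 6 groups together, 8 of 9 members tested differed in the F test of edgeR, where 33.2% of all genes did, and *Fos* missed with an adjusted p of 0.0706. *Atf3* had the smallest adjusted p, 1.8e-08, and the groups accounted for 85.4% of its variance on the log2 scale, which put it at the 98.3rd percentile of all genes. For *Ier2* this share was 70.0% and for *Fos* 30.2%, against a median of 34.1% over all genes. Most of the variance of *Fos* therefore lay between mice of the same group, and most of that of *Atf3* between groups.

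The spread between mice of a group was described next. Whether it arose in the animals or during isolation was not tested. The SD within groups on the log2 scale was 1.29 for *Fos*, 0.83 for *Egr1* and 0.71 for *Dusp1*, at the 94.8th, 79.4th and 74.7th percentile of all genes. It ranged from 0.25 for *Zfp36* to 0.41 for *Ier2* in the other 6 members, against a median of 0.334 over all genes. Scarce genes vary more, so the biological coefficient of variation was set against the trend of genes of like level. *Egr1* lay 2.37 times above this trend, *Fos* 1.67 times and *Jun* 1.58 times, while *Jund* lay on it at 1.00, and the median of all genes was 0.915. Counting of reads alone gives *Fos* a coefficient of variation of 0.14 at its mean count, against 0.841 between mice. The mean count is raised by the 460 reads of FAD_ABX_1455, against a median of 27 reads, so counting adds more in most mice. The value of 0.14 also treats reads as independent and leaves out the sampling of molecules before amplification.

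**Figure D3:**
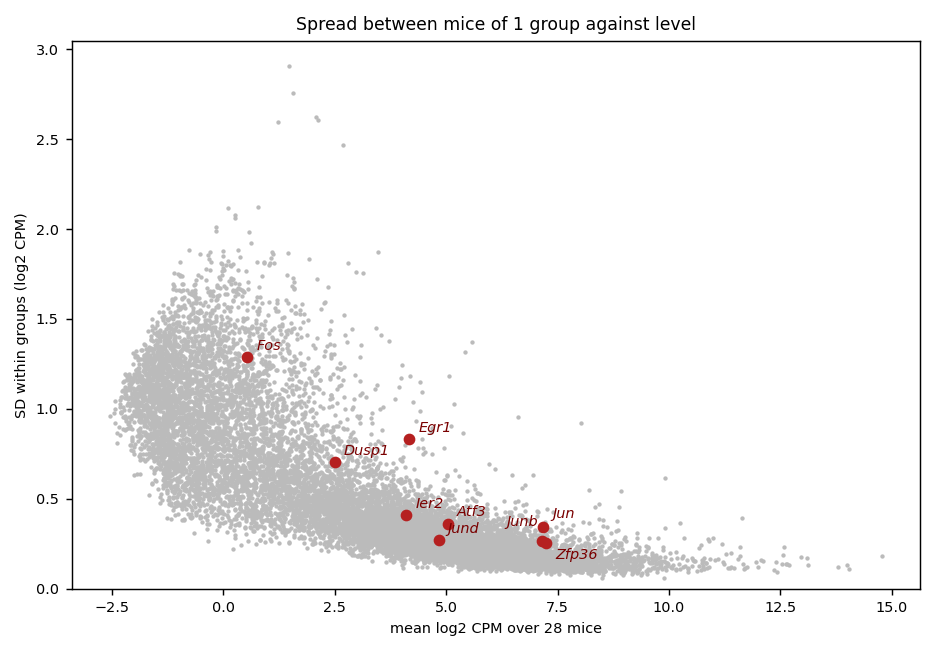
SD within groups of log2 CPM against mean log2 CPM over 28 mice for all 15298 genes tested (grey) and the 9 members (red). *Fos*, *Egr1* and *Dusp1* have the largest SDs of the members, at 1.29, 0.83 and 0.71, and *Jun*, *Junb* and *Zfp36* sit at the high-level end between 0.25 and 0.34.

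It was then asked whether the members deviated from their group means in the same mice. The deviation of *Fos* was set against those of the other 8 members tested over 28 mice, with permutation of mice within groups. Pearson's r ranged from -0.14 with *Atf3* to 0.34 with *Dusp1*, with permutation p-values adjusted over the 8 pairs of 0.711 to 0.8, and Spearman's rho gave 0 of 8 pairs too, with an adjusted p of 0.825 for each. Without the 2 mice farthest from the median of *Fos*, FAD_ABX_1455 and FAD_ABX_1482, r lay between -0.10 and 0.41. Within name styles the sign turned for some pairs. *Fos* and *Jund* had r of 0.55 over 10 mice of the first and -0.71 over 14 mice of the third style.

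Of the 28 pairs among the other 8 members, 1 passed, that of *Jun* and *Junb*. Their r was 0.77 and rho 0.68 over 28 mice (permutation p = 8e-05 and 0.00022, adjusted over 28 pairs 0.00224 and 0.00616). It was 0.68 without WT_ABX_911 and WT_GF_199, the 2 mice farthest from the median of *Jun*, 0.84 over 10 mice of the first and 0.68 over 14 mice of the third name style. *Junb* and *Ier2* (r = 0.64, permutation, adjusted p = 0.0531) and *Junb* and *Jund* (r = 0.65, permutation, adjusted p = 0.0655) came next without passing. Without WT_GF_230, 6 pairs passed, by 10000 permutations. Over all 36 pairs r was above 0 in 24, with a median of 0.263.

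FAD_GF_182 lay above its group mean in 9 of 9 members and WT_ABX_932 in 8 of 9, whereas WT_ABX_911, WT_SPF_925 and WT_SPF_926 did so in 1 of 9. In WT_GF_199 *Jun*, *Junb*, *Dusp1* and *Zfp36* were the highest of all 28 mice, at 299, 226, 23.7 and 244 CPM, while *Egr1* was the lowest of all at 3.49 CPM. FAD_ABX_1455 had by far the most *Fos* but, with 99.3 CPM, the least *Jun* of the ABX 5xFAD mice. In these mice 1 member was high while another was low.

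**Figure D4:**
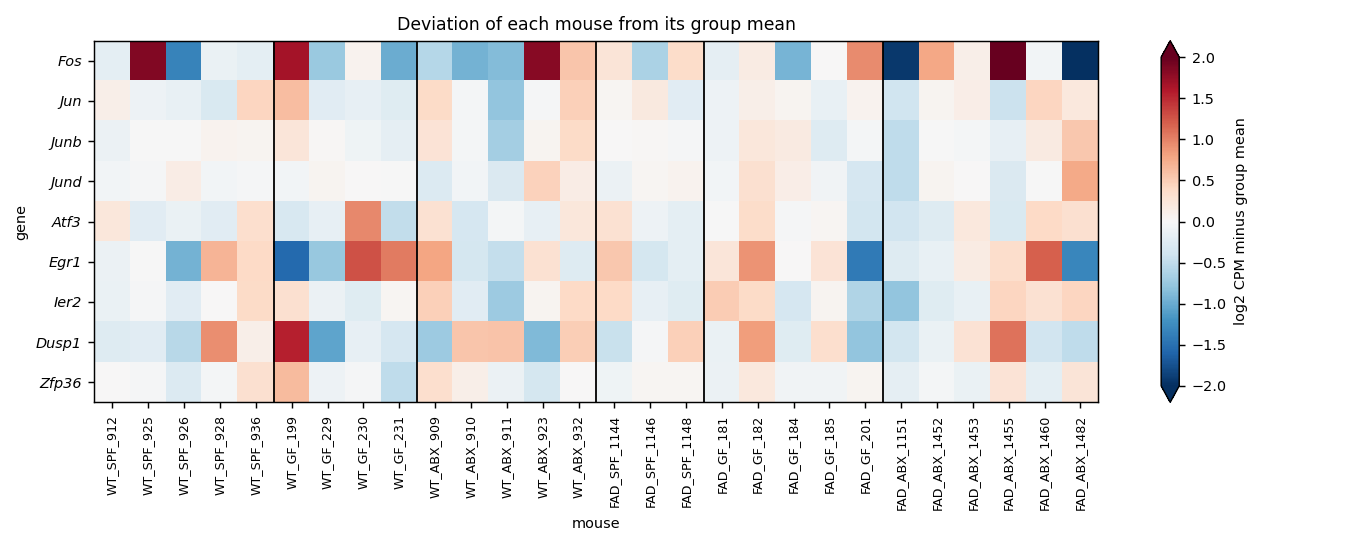
Deviation of each mouse (columns, ordered by group) from its group mean on the log2 CPM scale for the 9 tested genes (rows), red above and blue below the mean. *Fos*, *Egr1* and *Dusp1* carry the strongest colours, FAD_ABX_1455 is red for *Fos* and blue for *Jun*, and FAD_ABX_1151 is blue in all 9 rows.

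Genes outside the lists whose deviations were most like the mean of the members over 28 mice were *Keap1*, *Got1*, *Gpr84*, *Tecr* and *Grn*, among 8990 genes searched. Their r was 0.78 for *Keap1*, 0.76 for *Got1*, 0.76 for *Gpr84*, 0.72 for *Tecr* and 0.72 for *Grn*, and as they were picked for it, no test was made.

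Other genes of the same programme were listed beside the members. Of 6 other AP-1 and related factors, such as *Fosl2* and *Batf*, 1 rose in GF against SPF 5xFAD mice, *Batf* by 0.92 ± 0.25 on the log2 scale (edgeR, adjusted p = 0.0151). Of 29 tested among 32 other early genes, 4 rose and 0 fell. This share, like those of the feedback and upstream lists, is close to the 12.8% of all genes that passed. Among these *Gadd45g*, a growth arrest gene, rose by 1.03 ± 0.33 (edgeR, adjusted p = 0.0382), *Myc* by 0.67 ± 0.19 (edgeR, adjusted p = 0.0197) and *Klf6* by 0.40 ± 0.09 (edgeR, adjusted p = 0.00676). Of 8 tested feedback genes, 1 rose, *Socs3*, which dampens cytokine signals, by 0.65 ± 0.20 (edgeR, adjusted p = 0.0278). The median over the 29 early genes was 0.20 and over the 6 AP-1 factors 0.67, against 0.91 over the members.

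Of 21 upstream kinases and promoter factors 1 rose and 2 fell. The kinase *Map2k2* rose by 0.36 ± 0.10, while *Creb1*, which binds the cAMP response element, fell by 0.61 ± 0.16 and *Elk4*, a partner of serum response factor, fell by 0.53 ± 0.16 on the log2 scale, with adjusted p-values by edgeR of 0.0197, 0.0148 and 0.0313. Of 11 other genes known to respond to isolation 3 rose, the chemokine genes *Ccl4* by 1.17 ± 0.37 and *Ccl3* by 1.04 ± 0.31 and the NF-kB regulator *Nfkbid* by 0.66 ± 0.22, with adjusted p-values by edgeR of 0.0354, 0.0265 and 0.0483. *Ccl3*, *Ccl4* and *Egr2* rose in 5xFAD against WT mice in all 3 conditions, which 0 of 9 members did. *Egr2*, a relative of *Egr1*, rose by 2.32, 2.64 and 1.99 on the log2 scale in SPF, GF and ABX mice, with adjusted p-values by edgeR of 0.000244, 2.04e-05 and 0.000167. *Ccl3* rose by 2.72, 3.58 and 2.99, with adjusted p-values by edgeR of 1.79e-07, 1.35e-09 and 4.52e-09. *Ccl4* rose by 1.97, 2.88 and 2.14, with adjusted p-values by edgeR of 0.000375, 8.43e-07 and 1.49e-05.

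In 5xFAD against WT mice 4.57% of all genes passed under SPF, 15.6% under GF and 14.4% under ABX conditions, against which the lists are to be read. Of the other AP-1 factors 1 of 6 rose in each condition. Of the 29 other early genes 1 rose and 3 fell in SPF mice, 3 rose and 1 fell in GF mice, and 4 rose and 5 fell in ABX mice. Among these *Myc* rose by 1.23 ± 0.18 in GF mice (edgeR, adjusted p = 7.87e-06), while *Klf2* fell by 1.04 ± 0.25 in ABX mice (edgeR, adjusted p = 0.00396). Of the 8 feedback genes 0 rose and 1 fell in SPF, 1 rose and 1 fell in GF, and 0 rose and 1 fell in ABX mice. The upstream list had 0 higher and 1 lower gene in SPF, 1 and 2 in GF, and 1 and 3 in ABX mice, and the isolation list 2, 3 and 2 higher genes and 0 lower ones. Between ABX and GF 5xFAD mice, where 10.6% of all genes passed, 1 early gene was higher and 1 lower, 1 upstream gene higher and 1 lower, and *Ccl3* and *Ccl4* of the isolation list fell by 0.94 ± 0.25 and by 1.14 ± 0.29 (edgeR, adjusted p = 0.0149 and 0.0133).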

How the data were processed

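RNA-seq counts of FACS-isolated hippocampal microglia from 28 mice were used. Per the labels and methods, the authors made cDNA from 300 pg of RNA with the SMARTer v4 kit, prepared Nextera XT libraries, aligned single reads with STAR 2.7.2 and counted reads per gene with featureCounts 1.6.2 on GENCODE M21. The labels list GRCh38.p12 as build and the methods GRCm38, and the gene coordinates in the table are those of GRCm38. The deposited values were raw counts, and the table also gave each gene's length, used here for CPM per kb. Whether the counting used strand is not given in the sources used here.

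Rows of 92 spike-ins were left out. Genes were kept with filterByExpr (minimum count 10, minimum total 15), which left 15298 of 48587 genes, and scaled with TMM in edgeR 4.0.16 (R 4.3.3). The quasi-likelihood test was fitted over all 28 mice with 1 term per group and 22 residual degrees of freedom, p-values were two-sided and adjusted after Benjamini and Hochberg over all genes tested, and 0.05 was the threshold. CPM used TMM-scaled library sizes, marker sums library totals, and log2 CPM a prior count of 2. Correlations used deviations from group means with 100000 permutations of mice within groups, or 10000 where mice were left out. In total 38 other settings were tried, among them DESeq2 1.42.0, voomWithQualityWeights in limma 3.58.1 and leaving out each of the 28 mice. The test was checked on simulated data. Nothing in the labels says more than that each library is 1 mouse, and p-values measure the spread between these mice.

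The members and gene lists were chosen with earlier results of these data known. All members were named, list genes were named from the 3 largest changes per list and comparison among genes that passed and had a mean log2 CPM of at least 1, and the 5 genes most like the mean of the members were named among genes with a mean log2 CPM of at least 3. The pairs among the other members were added after the data were seen.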

Additional observations from a re-analysis of the deposited data

Results flagged for a closer look

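The highest or lowest mouse of a gene was compared with the others of its group by Dixon's criterion at the 95% level. This was done in 50 groups of 4 to 6 mice, and 11 passed, each through its highest mouse. Chance passes the criterion in about 1 of 20 groups if values are normally distributed. Here it was applied to CPM on the linear scale, which can be skewed towards high values. The 11 can therefore not be set against that rate. *Fos* reached 19 CPM in FAD_ABX_1455 against 0.391 to 3.51 in the other mice of its group, and 2.84 CPM in WT_SPF_925 against 0.223 to 0.646. *Fosb* reached 1.27 CPM in FAD_GF_184 against 0 to 0.182, 0.231 CPM in FAD_ABX_1453 against 0 to 0.0603 and 0.0989 CPM in WT_ABX_932 against 0 in the others, the last from 3 reads, where the criterion is met by any value above 0. The 3 *Fosb* values rest on at most 31 reads, a further reason not to compare them with the chance level. *Jun* reached 299 CPM in WT_GF_199 against 165 to 174, and *Dusp1* 23.7 CPM in the same mouse against 3.79 to 7.08. *Dusp1* also reached 11.6 CPM in FAD_ABX_1455 against 3.78 to 6.64. *Jund* reached 48.3 CPM in FAD_ABX_1482 against 20 to 29.6 and 30.6 CPM in WT_SPF_926 against 26.7 to 27.3. *Atf3* reached 36.2 CPM in WT_GF_230 against 13.2 to 16.6. The causes were not tested.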

How the results depend on the processing

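For single members, 108 differences gave 4092 values under the 38 other settings, of which 3977 kept their side of the threshold, 50 lost and 65 gained a call. The sign turned in 72 values of 27 differences, 0 of them for a member that passed. The number of members passing moved by more than 1.5 times as follows, with the share of all genes passing in parentheses, and the cause was not tested. For SPF 5xFAD against WT it was 0 (4.57%), but 2 with voomWithQualityWeights (14.1%), 1 with DESeq2 (6.49%) and 4 in a fit of only the groups compared (9.71%). For GF 5xFAD against WT it was 2 (15.6%), but 5 with voomWithQualityWeights (16%). For ABX 5xFAD against WT it was 2 (14.4%), but 1 with library size alone (16.2%), voomWithQualityWeights (14.3%), GC content offsets (12%) or only the groups compared (10%), and 4 with DESeq2 (16.7%). For GF against SPF it was 6 in 5xFAD mice (12.8%), but 3 with GC content offsets (9.1%), and 0 in WT mice (1.62%), but 2 with voomWithQualityWeights (10.7%), 3 with DESeq2 (6.14%), 3 with only the groups compared (9.6%) and 2 without FAD_ABX_1151 and FAD_ABX_1482 (4.31%). For ABX against GF it was 3 in 5xFAD mice (10.6%), but 1 with only the groups compared (1.89%), and 2 in WT mice (6.88%), but 4 with DESeq2 (13.4%), 0 with GC content offsets (1.41%) and 4 without FAD_ABX_1151 and FAD_ABX_1482 (9.47%). The difference of the 5xFAD effect between GF and SPF was 0 (0%), but 1 with voomWithQualityWeights (0.758%).

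Leaving out each mouse gave 0 to 1 members (2.73% to 5.3% of all genes) for SPF, 2 to 4 (11.7% to 18.1%) for GF and 1 to 4 (9.9% to 17.7%) for ABX 5xFAD against WT, 2 to 6 (3.41% to 15.1%) for GF against SPF in 5xFAD, and 1 to 5 (6.39% to 16.3%) in 5xFAD and 1 to 4 (2.91% to 8.66%) in WT mice for ABX against GF. DESeq2's shares are of genes with an adjusted p. The number of pairs passing among the other members was 1 to 6. Library size alone moved the median of all genes for GF 5xFAD against WT from -0.025 to -0.15 on the log2 scale. No analysis paired by litter was possible because the labels do not give the litters of the mice. *Fosb* could not be tested at this depth, and *Fos* rests on a median of 27 reads per library.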
